A study of Mus musculus with 9 samples.

Results

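The claudin, tight junction and connexin genes Cldn1, Cldn3, Cldn4, Cldn7, Ocln, Tjp1, Gja1 and Gjb2 were followed in a mouse prostate epithelial line without functional Rb1 and in a wild-type one. They were chosen by name: every probe set that the platform annotation assigned to 1 of these 8 genes was taken, which gave 12 of the 12422 probe sets on the array. A probe set is a group of short probes that together report 1 transcript. Of the 12, 11 were bright enough to test. The remaining one, a Tjp1 probe set (162298_r_at), lay between 2.26 and 11.1 on the 9 arrays, far under the floor of 197 that stood in for a detection limit.

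The arrays measured total RNA of Rb-/- cells kept for 48 hours in RPMI-1640 without fetal bovine serum (2 arrays), Rb-/- cells in RPMI-1640 with 5% fetal bovine serum (2 arrays), wild-type cells without serum for 48 hours (2 arrays) and wild-type cells with 5% serum (3 arrays). The Rb-/- line is called Rb-null here. The labels name 1 line per genotype, so what is called a difference in genotype compares 2 lines, and the labels name no mouse strain, age, deletion allele or passage. Whether arrays of 1 group came from separate cultures is not stated, so p-values measure only the spread between arrays, and the small number of arrays limits the precision.

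Tight junctions seal the space between neighbouring epithelial cells near their apical surface. Claudins are the membrane proteins that form the sealing strands and set which ions pass, occludin (Ocln) lies in the same strands, and the scaffold protein of Tjp1 ties them to the actin cytoskeleton. Connexins assemble into gap junctions, channels through which small molecules move directly from cell to cell, and secretory epithelia such as the prostate use both kinds of junction.

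Cldn1, Gja1 and Gjb2 were the genes with a probe set called in the same direction after serum withdrawal in both lines. Their promoters are shown for that reason, as the 250 bases upstream of the annotated start in RefSeq (build GRCm38.p6), 5′ to 3′ on the strand of the gene. Cldn1 lies on the minus strand (chr16:26371840-26372089), Gja1 on the plus strand (chr10:56377050-56377299) and Gjb2 on the minus strand (chr14:57104703-57104952). Capitals mark matches, on either strand, to GGGCGG (the GC box bound by Sp1-type factors), TGANTCA (the AP-1 site bound by Fos and Jun proteins) and CAGGTG (an E-box bound by Snail and ZEB factors).
Cldn1: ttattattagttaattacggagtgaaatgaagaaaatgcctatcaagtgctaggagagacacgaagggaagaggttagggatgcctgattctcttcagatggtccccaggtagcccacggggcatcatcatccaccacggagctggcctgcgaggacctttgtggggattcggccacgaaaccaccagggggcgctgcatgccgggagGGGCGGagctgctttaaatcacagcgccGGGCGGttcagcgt
Gja1: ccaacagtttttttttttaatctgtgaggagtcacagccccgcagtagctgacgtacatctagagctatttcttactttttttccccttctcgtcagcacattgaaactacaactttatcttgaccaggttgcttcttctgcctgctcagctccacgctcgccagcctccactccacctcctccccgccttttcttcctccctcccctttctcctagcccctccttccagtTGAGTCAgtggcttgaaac
Gjb2: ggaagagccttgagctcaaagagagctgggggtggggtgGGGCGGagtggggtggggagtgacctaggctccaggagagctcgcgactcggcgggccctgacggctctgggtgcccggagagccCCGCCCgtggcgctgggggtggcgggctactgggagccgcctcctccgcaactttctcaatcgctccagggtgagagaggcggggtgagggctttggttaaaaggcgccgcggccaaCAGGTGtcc

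The Cldn1 window held 2 GC boxes, at 42 and 14 bases before the start, and neither an E-box nor an AP-1 match. The Gja1 window held 1 AP-1 match, 19 bases before the start. The Gjb2 window held 2 GC boxes, at 211 and 126 bases, and an E-box 9 bases before the start. Among 32851 RefSeq windows of the same length, 32.7% held a GC box, 17.2% this E-box and 6.75% an AP-1 match. All 8 genes were found among these windows, and a window of Cldn4, of Cldn7 and of Ocln also held the E-box. The Cldn4 window held 2 AP-1 matches as well, at 240 and 158 bases before the start. Every member gene except Gja1 had a window with a GC box. A match describes letters in a window and shows no binding.

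The arrays had median deposited intensities from 445 to 474. Rb1 was read on 1 probe set at 171 and 167 in Rb-null cells without serum and 114 and 110 in Rb-null cells with serum, all under the floor, against 368 to 714 on the 5 wild-type arrays (at least 2.15-fold lower averaged over the media, limma adjusted p = 0.000923, and 0.126 with the floor at percentile 40). A second Rb1 probe set was under the floor on all 9 arrays (22 to 32 in Rb-null cells, 45 to 81 in wild-type cells) and checks nothing. Epithelial identity was checked with markers: the keratins Krt8, Krt18, Krt19 and Krt7 lay between 6270 and 12815 on every array, and the adhesion genes Epcam and Cdh1 between 1095 and 2254. Marker lists of other cell types gave mixed readings. Ptprc and Lyz2 (leukocyte) and Acta2, Myh11 and Cnn1 (smooth muscle) were under the floor on all 9 arrays. So were Tek and Cldn5 (endothelial) and Vim and Lum (fibroblast). Other genes of those lists were above it on all 9, among them Cd68 (557 to 627), Itgam (291 to 565), Kdr (565 to 815) and Pecam1 (391 to 710). Of the 8 fibroblast genes 6 were above it on all 9, with Pdgfra (533 to 684) and Col1a1 (804 to 1121) among them. Of the 5 basal markers, Krt5 (546 to 731), Itga6 (408 to 729) and Trp63 (326 to 390) were also above it on every array. Krt14 lay just above it (205 to 232), and Krt15 was under it on all 9 arrays (114 to 179). Summed over 6 smooth muscle markers, 3 of them above the floor, the intensity was 5275 to 5600 in Rb-null cells without serum and 5138 to 5392 with serum. Wild-type cells gave 7571 to 7682 without serum and 7065 to 8290 with serum. Most of this sum came from 1 probe set, that of Actg2 (3812 to 6715 over the 9 arrays). Des (600 to 850) and Tagln (373 to 616) added less. The Actg2 probe set has the suffix _f, a design that may also bind related transcripts. The sum over 3 neuroendocrine markers was 1864 to 1998 and 1794 to 1918 in Rb-null cells, against 2613 to 2816 and 2276 to 2694 in wild-type cells. Most of that sum came from Uchl1 (1200 to 2054 over the 9 arrays), while Chga read 395 to 584 and Syp 172 to 268. The sum over 8 endothelial markers was 2596 to 2609 and 2652 to 2717, against 2917 to 3040 and 2816 to 3069. The fibroblast sum was 3484 to 3650 in Rb-null cells without serum, against 4219 to 4314 in wild-type cells without serum, and overlapped with serum. With serum, the luminal sum was higher in Rb-null cells (31315 to 31457, against 26559 to 30239 in wild-type cells). So was the pan-epithelial sum (14879 to 15114, against 13035 to 13851), and both overlapped without serum. The leukocyte sum was lower in Rb-null cells without serum (1365 to 1408, against 1514 to 1619) and overlapped with serum. The basal sum overlapped in both media. What part these sums have in the differences between the lines was not tested. The array wild-type serum 1 stood apart, with rank correlations of 0.986 and 0.983 to the other wild-type serum arrays against 0.997 between those. Counts of called probe sets are therefore also given without it. In RNA from whole cultures, fewer cells of a type and less RNA per cell cannot be told apart.

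Values below are quantile-normalised intensities, differences are on the log2 scale with standard errors (SE), and the test is limma across all 9686 probe sets bright enough to test, with Benjamini-Hochberg adjusted p. A probe set is called when that p is under 0.05.

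**Figure D1:**
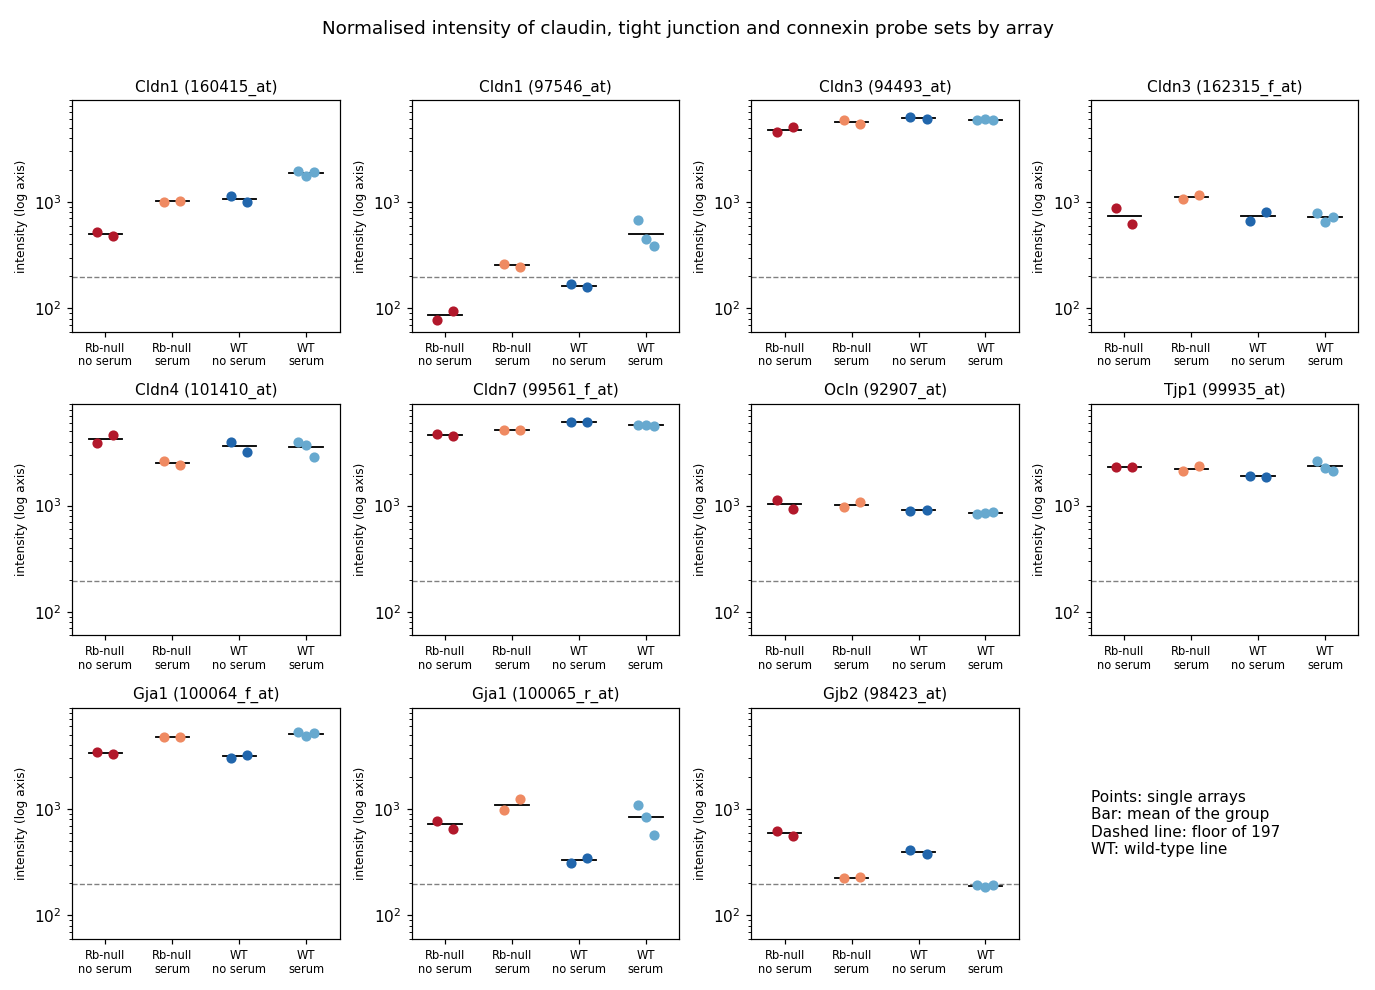
Normalised intensity (vertical log axis) of the 11 tested probe sets on each array, by line and medium; points are arrays, bars group means, and the dashed line is the floor of 197. Cldn1 (160415_at) was lowest in Rb-null cells without serum and highest in wild-type cells with serum, while Gjb2 ran the opposite way.

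After serum was withdrawn, the connexin gene Gjb2 rose and the connexin gene Gja1 and the claudin gene Cldn1 fell, in both lines, while Cldn7 and Ocln showed no called change. Averaged over the lines, 6 of the 11 probe sets were called after withdrawal, 2 higher and 4 lower, against 23.8% of all tested probe sets (11.7% higher, 12.1% lower). In the Rb-null line 6 were called, 2 higher and 4 lower, against 13.9% of all (7.5% higher, 6.42% lower), and 9 without wild-type serum 1. In the wild-type line 6 were called, 1 higher and 5 lower, against 15.9% of all (6.61% higher, 9.25% lower), and also 6 without that array. Leaving that array out also moved the calls over all tested probe sets. They went from 1348 to 2280 in the Rb-null line and from 1536 to 1963 in the wild-type line. The serum-free and serum arrays did not overlap for 9 of the 11 in the Rb-null line (56% of all) and for 8 in the wild-type line (44.2% of all). The median difference of the 11 was -0.25 in Rb-null cells and 0.03 in wild-type cells, where all tested probe sets had medians of 0 and 0.05.

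**Figure D2:**
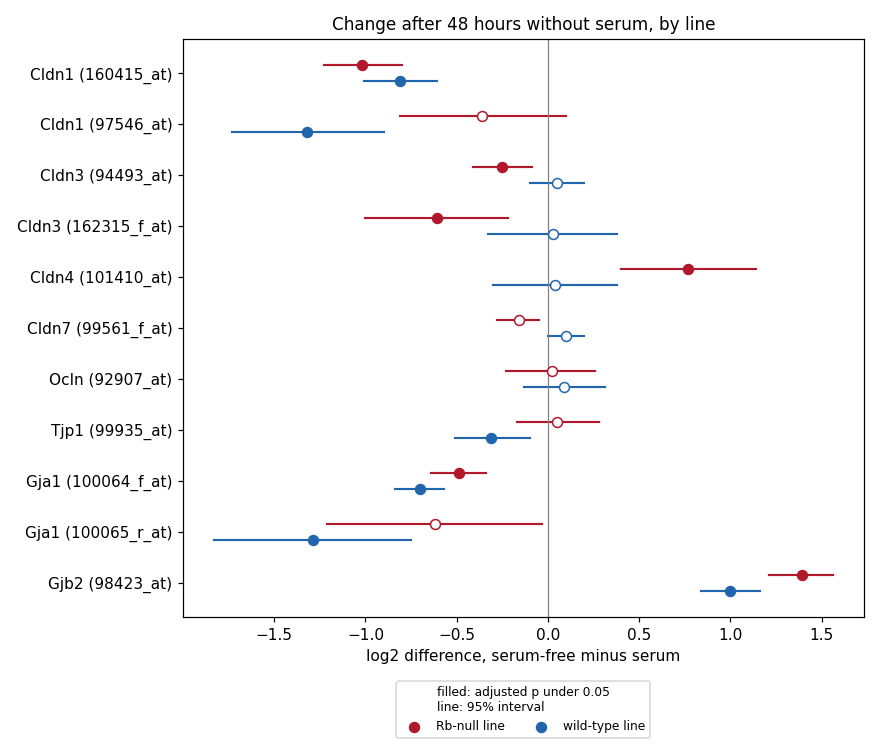
Log2 difference between serum-free and serum medium for each probe set in the Rb-null line and the wild-type line, with 95% intervals; filled points have an adjusted p under 0.05. Gjb2 lies furthest right in both lines, and Cldn1 (160415_at) and Gja1 (100064_f_at) lie left of 0 in both.

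Gjb2 encodes a small connexin whose human gene is best known for its mutations in inherited deafness. In Rb-null cells it read 620 and 562 without serum, against 223 and 229 with serum. Wild-type cells gave 413 and 376 without serum, against 193, 184 and 192 with serum. The groups did not overlap in either line, and every wild-type serum array was under the floor. The rise was 1.39 (SE 0.08, adjusted p = 8.6e-06), or 2.61-fold, in Rb-null cells. In wild-type cells it was at least 2-fold (adjusted p = 2.54e-05), a bound because the serum arrays were under the floor. With the floor at percentile 40 of all values the differences were 0.82 in Rb-null cells and 0.24 in wild-type cells, both still called (highest adjusted p = 0.0258).

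Gja1 encodes the most widely expressed connexin, found in heart muscle, smooth muscle and many epithelia. Its brighter probe set (100064_f_at) read 3475 and 3266 in Rb-null cells without serum, against 4721 and 4721 with serum. Wild-type cells gave 3054 and 3234 without serum, against 5276, 4864 and 5225 with serum. All serum-free arrays lay under all serum arrays, whichever the line. The difference was -0.49 (SE 0.07, adjusted p = 0.00153) in Rb-null cells and -0.70 (SE 0.06, adjusted p = 7.78e-05) in wild-type cells, and these calls held under all 16 alternative settings.

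The dimmer Gja1 probe set (100065_r_at) moved the same way, with more scatter. It read 778 and 656 in Rb-null cells without serum, against 977 and 1233 with serum. Wild-type cells gave 309 and 350 without serum, against 1096, 843 and 565 with serum. The fall in wild-type cells was called (-1.29, SE 0.24, adjusted p = 0.00582), although not without wild-type serum-free 1 (adjusted p = 0.0731, over alternatives 0.000439 to 0.0731). The Rb-null difference of -0.62 (SE 0.26, adjusted p = 0.178) was not called, but it passed without wild-type serum 1 (adjusted p = 0.0381), without wild-type serum 3 (0.0391) and with the replicate number as a block (0.0481). The 2 probe sets had a correlation of 0.71 over the 9 arrays. The suffixes _f and _r mark designs that may also bind related transcripts or that broke the usual probe selection rules.

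Cldn1 encodes a claudin that tightens the barrier, known above all from the epidermis. Its brighter probe set (160415_at) read 524 and 482 in Rb-null cells without serum, against 1003 and 1031 with serum. In wild-type cells it read 1127 and 1003 without serum, against 1938, 1752 and 1908 with serum. It thus read at about the same level in Rb-null cells with serum and in wild-type cells without it, with overlapping arrays, and the other groups lay below and above. The difference on withdrawal was -1.02 (SE 0.10, adjusted p = 0.000179) in Rb-null cells and -0.81 (SE 0.09, adjusted p = 0.000292) in wild-type cells, and both calls held under all 16 alternatives.

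The dimmer Cldn1 probe set (97546_at) fell to under the floor without serum. It read 78.3 and 94.2 in Rb-null cells without serum, against 263 and 242 with serum. In wild-type cells it read 170 and 157 without serum, against 672, 448 and 389 with serum. The fall was called in wild-type cells (at least 2.5-fold, adjusted p = 0.00141) and not in Rb-null cells (-0.36, SE 0.20, adjusted p = 0.346). With the floor at percentile 10, which was 94, the Rb-null difference was -1.43 (adjusted p = 0.00192). It is a bound, because the Rb-null serum-free readings lay under or about at that lower floor too. The floor at percentile 40 ended the wild-type call (-0.55, adjusted p = 0.0686). Without wild-type serum 1, the array with the highest reading, the Rb-null difference was still -0.36 but was called (adjusted p = 0.00735).

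Cldn4, a claudin that limits sodium passage and serves as a receptor for Clostridium perfringens enterotoxin, rose on withdrawal in the Rb-null line. It read 3906 and 4624 in Rb-null cells without serum, against 2603 and 2389 with serum, with no overlap. In wild-type cells it read 4001 and 3220 without serum, against 3986, 3736 and 2857 with serum, and these arrays overlapped. The difference was 0.77 (SE 0.16, adjusted p = 0.0131) in Rb-null cells and 0.04 (SE 0.15, 95% interval -0.30 to 0.38, adjusted p = 0.885) in wild-type cells. The Rb-null call was lost without Rb-null serum-free 2, Rb-null serum 1 or Rb-null serum 2 (highest adjusted p = 0.107) and with no filter on dim probe sets. Averaged over the lines it was 0.40 (SE 0.11, adjusted p = 0.0256), lost without Rb-null serum-free 2, either Rb-null serum array or wild-type serum-free 1, as deposited (0.31), with a common median (0.35) and with no filter (adjusted p over alternatives 0.0072 to 0.119).

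Cldn3 fell in Rb-null cells on both probe sets, near the threshold. The bright Cldn3 probe set (94493_at) read 4512 and 5068 in Rb-null cells without serum, against 5944 and 5424 with serum (-0.25, SE 0.07, adjusted p = 0.0492). The dimmer one (162315_f_at) read 869 and 614 without serum, against 1075 and 1154 with serum (-0.61, SE 0.17, adjusted p = 0.0461). These calls held under 5 and 6 of the 16 alternatives. Both were lost without either Rb-null serum array, either wild-type serum-free array or wild-type serum 2 or 3, and also without Rb-null serum-free 1 for the bright probe set and Rb-null serum-free 2 for the dimmer one (adjusted p up to 0.329 and 0.27). With the replicate number as a block they were lost as well (adjusted p = 0.0883 and 0.0602). In wild-type cells the Cldn3 differences were 0.05 and 0.03 (adjusted p = 0.637 and 0.921).

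Tjp1 (99935_at) read 2284 and 2319 in Rb-null cells without serum, against 2107 and 2333 with serum, and 1890 and 1867 in wild-type cells without serum, against 2598, 2275 and 2128 with serum. The wild-type difference of -0.31 (SE 0.09, adjusted p = 0.0493) was called, but only under 5 of the 16 alternatives. It was lost without any 1 of the 4 Rb-null arrays, either wild-type serum-free array or wild-type serum 2 (adjusted p up to 0.227). Cldn7 changed by -0.16 (SE 0.05, adjusted p = 0.062) in Rb-null cells and 0.10 (SE 0.05, adjusted p = 0.195) in wild-type cells, and passed in Rb-null cells without wild-type serum 1 (adjusted p = 0.0262), as deposited (-0.24, adjusted p = 0.0329), with the floor at percentile 40 and with no filter. Ocln changed by 0.02 (95% interval -0.23 to 0.26) and 0.09 (95% interval -0.13 to 0.31).

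Between the lines the clearest difference was that of Cldn1, which was lower in Rb-null cells in both media. Gjb2 was higher in Rb-null cells, Cldn7 and the bright Cldn3 probe set were slightly lower, and Ocln and the dimmer Gja1 and Cldn3 probe sets were higher. Averaged over the media, 8 of the 11 probe sets were called, 4 higher and 4 lower, against 45.2% of all tested probe sets (21.8% higher, 23.4% lower), and 9 without wild-type serum 1. Without serum 5 were called, 2 higher and 3 lower, against 30.7% of all (16.8% higher, 13.9% lower), and 6 without that array. With serum 4 were called, 1 higher and 3 lower, against 23.6% of all (13.2% higher, 10.4% lower), and 6 without it. Leaving out wild-type serum 1 also raised the calls over all tested probe sets. They went from 4377 to 6074 averaged over the media, from 2971 to 4981 without serum and from 2287 to 4376 with serum. The arrays of the 2 lines were apart for 8 of the 11 without serum (74.3% of all) and for 8 with serum (49.5% of all). The median of the 11 was -0.01 averaged over the media, against -0.05 over all tested probe sets.

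**Figure D3:**
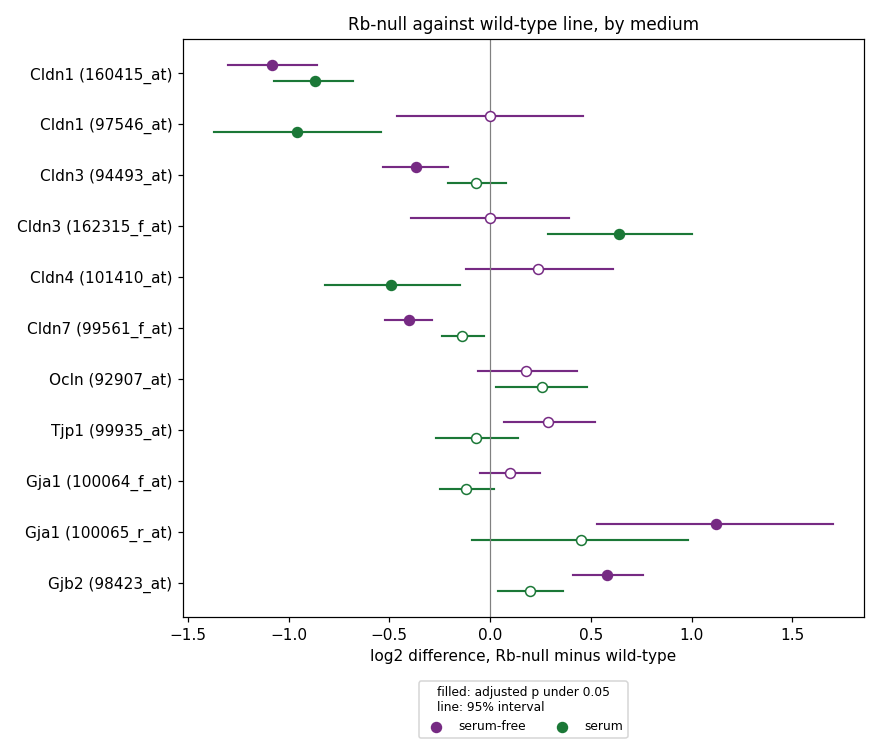
Log2 difference, Rb-null minus wild-type, for each probe set in serum-free medium and in serum, with 95% intervals; filled points have an adjusted p under 0.05. Cldn1 (160415_at) lies left of 0 in both media, and Gjb2 and Gja1 (100065_r_at) are filled on the right only without serum.

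For Cldn1 (160415_at) the Rb-null minus wild-type difference was -1.08 (SE 0.10, adjusted p = 8.81e-05) without serum and -0.87 (SE 0.09, adjusted p = 0.000157) with serum, and both calls held under all 16 alternatives. Within either medium, every Rb-null array lay under every wild-type array. The dimmer probe set (97546_at) was lower with serum (-0.96, SE 0.18, adjusted p = 0.00572), a call lost without Rb-null serum 2 (adjusted p = 0.0625) and with the floor at percentile 40. Without serum both lines were under the floor, so the fit gave 0. With the floor at percentile 10 it gave -0.80 (adjusted p = 0.0194). This too is a bound, because the Rb-null readings lay under or about at that lower floor. The average over the media, -0.48 (SE 0.14, adjusted p = 0.0198), was not called without either Rb-null serum-free array, Rb-null serum 2 or either wild-type serum-free array (adjusted p over alternatives 0.000341 to 0.116).

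Gjb2 differed by 0.58 (SE 0.08, adjusted p = 0.000875), or 1.5-fold, without serum, where 620 and 562 in Rb-null cells stood above 413 and 376 in wild-type cells. With serum it differed by 0.20 (SE 0.07, adjusted p = 0.0744), a lower bound because of the floor. Gja1 had no called difference on its brighter probe set, 0.10 (95% interval -0.05 to 0.25) without serum and -0.12 (95% interval -0.25 to 0.02) with serum. Its dimmer probe set was higher in Rb-null cells without serum (1.12, SE 0.26, adjusted p = 0.0125). That call was lost without Rb-null serum-free 1, wild-type serum-free 1 or wild-type serum-free 2 (adjusted p up to 0.0922). With serum it differed by 0.45 (adjusted p = 0.215), and by 0.67 without wild-type serum 1 (adjusted p = 0.0162). Without serum the brighter probe set was also called higher in Rb-null cells in the values as deposited (0.31, adjusted p = 0.0175) and with a common median (0.27, adjusted p = 0.0384), so whether the Gja1 probe sets gave the same call there depended on the scaling.

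Cldn7 encodes a claudin of the lateral membrane of glandular epithelia. It read 4657 and 4521 in Rb-null cells without serum, against 6085 and 6045 in wild-type cells without serum. With serum it read 5151 and 5135 in Rb-null cells, against 5694, 5712 and 5574 in wild-type cells. All 4 Rb-null arrays lay under all 5 wild-type arrays; over both media the lines were apart for 2 of the 11 probe sets, Cldn7 and Ocln, and for 23.1% of all. The difference was -0.40 (SE 0.05, adjusted p = 0.000599) without serum and -0.14 (SE 0.05, adjusted p = 0.0579) with serum, and the serum difference passed without wild-type serum 1 (-0.14, adjusted p = 0.0362). In the values as deposited the serum difference was 0.06.

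Cldn3 encodes another sealing claudin of glandular epithelia, and its gene lies near Cldn4 on chromosome 5. Its bright probe set read 4512 and 5068 in Rb-null cells without serum, against 6331 and 6006 in wild-type cells (-0.37, SE 0.07, adjusted p = 0.00565, 0.0548 without wild-type serum-free 1, and -0.21 with adjusted p = 0.0555 as deposited). With serum it read 5944 and 5424 in Rb-null cells, against 5944, 6006 and 5899 in wild-type cells (-0.07, adjusted p = 0.501). Its dimmer probe set went the other way with serum, with 1075 and 1154 in Rb-null cells, against 791, 643 and 718 in wild-type cells (0.64, SE 0.16, adjusted p = 0.0175). That call was lost without Rb-null serum 1, Rb-null serum 2 or wild-type serum 2 (adjusted p up to 0.137). The pair of Cldn3 probe sets had a correlation of -0.16 over the 9 arrays, so the direction for this gene depended on the probe set. Averaged over the media the dimmer one stood at 0.32 (SE 0.12, adjusted p = 0.0491), and this call was lost without Rb-null serum-free 1, either Rb-null serum array, either wild-type serum-free array or wild-type serum 2 or 3, with the replicate number as a block (0.0739) and with no filter (adjusted p over alternatives 0.0127 to 0.179).

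Cldn4 was lower in Rb-null cells with serum, 2603 and 2389 against 3986, 3736 and 2857 in wild-type cells (-0.49, SE 0.15, adjusted p = 0.0432). The call held under 5 of the 16 alternatives and was lost without any 1 of the 4 Rb-null arrays, either wild-type serum-free array or wild-type serum 2 (adjusted p up to 0.246). Without serum the difference was 0.24 (95% interval -0.12 to 0.61).

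Ocln read 1130 and 934 in Rb-null cells without serum and 959 and 1075 with serum, against 894 and 915 in wild-type cells without serum and 830, 848 and 873 with serum. All 4 Rb-null arrays lay above all 5 wild-type arrays, by 0.22 averaged over the media (SE 0.07, adjusted p = 0.0366). The call was lost without Rb-null serum-free 1, Rb-null serum 2, either wild-type serum-free array or wild-type serum 2 or 3 (adjusted p up to 0.144), with the replicate number as a block (0.0646) and with no filter (0.0571). Tjp1 differed by 0.29 (SE 0.10, adjusted p = 0.0516) without serum and -0.07 (SE 0.09, adjusted p = 0.633) with serum. The serum-free difference was called without wild-type serum 1 (adjusted p = 0.00619), without wild-type serum 3 (0.0401) and in the values as deposited (0.50, adjusted p = 0.0163).

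**Figure D4:**
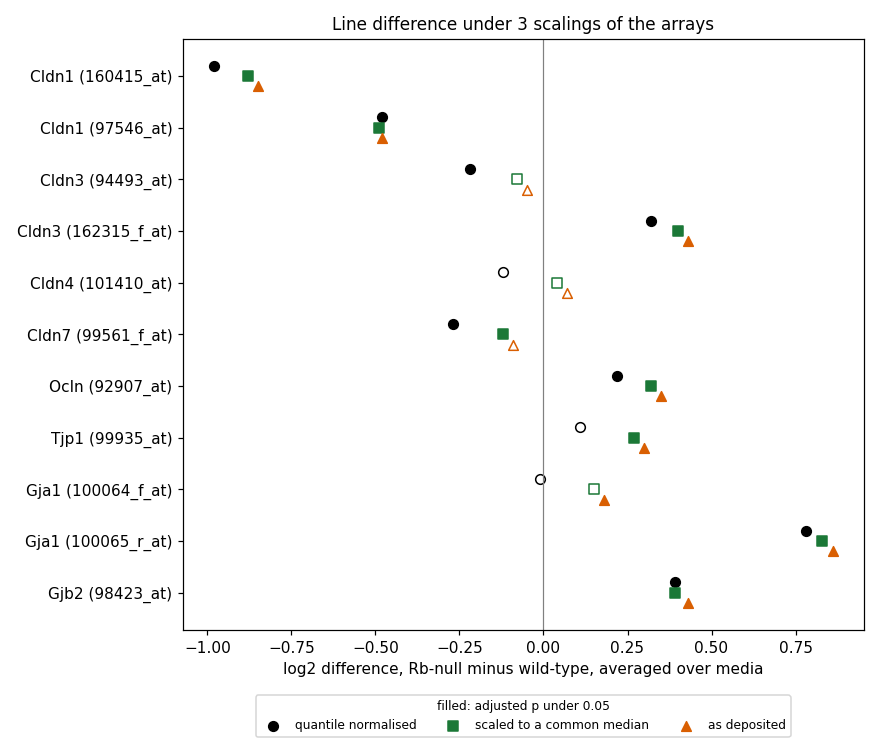
Log2 difference, Rb-null minus wild-type and averaged over both media, for each probe set under quantile normalisation, scaling to a common median and the values as deposited; filled points have an adjusted p under 0.05. The values as deposited lie to the right for most probe sets, and Cldn4 and Gja1 (100064_f_at) change sign.

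The scaling of the arrays set several of the small differences between the lines. Of all called probe sets in the averaged line difference, 48.1% were higher in Rb-null cells after quantile normalisation, 60.7% after scaling to a common median and 69.3% in the values as deposited. The averaged Cldn7 difference was -0.27 (adjusted p = 0.000294) after quantile normalisation, -0.12 with a common median and -0.09 (adjusted p = 0.114) as deposited. The bright Cldn3 probe set stood at -0.22 (adjusted p = 0.00617), -0.08 and -0.05 (adjusted p = 0.462) in the same order. The brighter Gja1 probe set stood at -0.01 and 0.15, and at 0.18 (adjusted p = 0.021) as deposited, and Cldn4 at -0.12, 0.04 and 0.07. Tjp1, at 0.11 (adjusted p = 0.2) after quantile normalisation, was called higher at 0.27 and 0.30, and also without wild-type serum 1 (0.15, adjusted p = 0.0197). Cldn1 (160415_at) and Gjb2 were called in the same direction under all 3.

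Whether withdrawal acted differently in the Rb-null line was tested as an interaction, the withdrawal change in Rb-null cells minus that in wild-type cells. By limma 0 of the 11 probe sets were called, against 0.929% of all tested probe sets. At an unadjusted p under 0.05 there were 8 of the 11, against 10.9% of all tested probe sets. The largest interactions were those of Cldn1 (97546_at) at 0.96 (SE 0.27, adjusted p = 0.204), which the floor shaped, and Cldn4 at 0.73 (SE 0.22, 95% interval 0.23 to 1.23, adjusted p = 0.228). Without wild-type serum 1 the first of these was called (0.73, adjusted p = 0.00918, over alternatives 0.00918 to 0.847). With the floor at percentile 10 it was 0.16. That value was also shaped by the floor, since the Rb-null serum-free readings of 78.3 and 94.2 lay under or about at the lower floor of 94. For Cldn1 (160415_at) the interaction was -0.21 (95% interval -0.50 to 0.09) and for Gjb2 0.38 (95% interval 0.14 to 0.62, adjusted p = 0.188). The Gjb2 interaction was called with the floor at percentile 40 (0.58, adjusted p = 0.0212), where both serum groups lie under the floor and the interaction equals the serum-free difference between the lines by construction. That of Cldn7 was called with no filter (-0.26, adjusted p = 0.0449). A missed threshold does not show that the lines responded alike.

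Among the members, each taken on its brightest probe set, Cldn1 (160415_at) and Gjb2 had the widest ranges of group means (1.89 and 1.59). The dimmer Gja1 probe set, with group means from 8.36 to 10.1, was not ranked. The genes most like Cldn1 and Gjb2 in pattern were found by Pearson correlation of log2 values over the 9 arrays. They were sought among 689 probe sets with a range of at least 1. For Cldn1 these were Tinagl1, a matrix glycoprotein gene (r = 0.991), Fads1, a fatty acid desaturase gene (r = 0.991), and Acp1, a phosphatase gene (r = 0.969). For Gjb2 they were Prnp, the prion protein gene (r = 0.995), Gadd45a, a growth-arrest and DNA damage gene (r = 0.989), and Crebrf (r = 0.984). These correlations describe 9 arrays in 4 groups. The arrays share their groups, so the value reflects mainly the group means.

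Of 37 other tight junction genes listed, 15 were on the array and 13 were tested; averaged over the media 2 were higher in Rb-null cells, 3 lower and 8 not called, against 45.2% of all tested probe sets called (median -0.06, against -0.05 over all). Cxadr, an adhesion molecule of tight junctions, was higher (0.53, SE 0.09, adjusted p = 0.00154), with 784, 785, 706 and 739 on the Rb-null arrays, against 526, 465, 653, 503 and 516 on the wild-type arrays. The claudin Cldn6 read 1081, 1142, 1265 and 1225 in Rb-null cells, against 1692, 1624, 1639, 1570 and 1607 in wild-type cells. It was lower without serum (-0.58, SE 0.08, adjusted p = 0.000802), as was Crb3, a polarity gene, on both probe sets (-0.58, SE 0.11, adjusted p = 0.00408, and -0.40, SE 0.10, adjusted p = 0.0202). On withdrawal in wild-type cells 0 were higher and 1 lower, against 6.61% higher and 9.25% lower over all tested probe sets. The lower one was the junction-associated transcription factor gene Ybx3 (-0.52, SE 0.06, adjusted p = 0.000337). The scaffold gene Mpdz also fell there on 1 probe set (-0.54, SE 0.13, adjusted p = 0.0224). Its other probe set, the brighter one that the count used, stood at 0.17 (adjusted p = 0.331). The fall was no longer called without either wild-type serum-free array (adjusted p up to 0.162).

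Other connexin and pannexin genes were read next. Of 18 listed, 7 were tested; 1 was higher in Rb-null cells, Gjc1, and 2 lower, Gjb6 and Gja4, averaged over the media (median -0.12), where 45.2% of all tested probe sets were called. After withdrawal 0 of the 7 were called in either line or averaged over the lines (limma). Of all tested probe sets, 13.9% were called in the Rb-null line, 15.9% in the wild-type line and 23.8% averaged over the lines. None of the 3 called differences reached 0.5.

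Of 12 adherens junction genes listed, 9 were tested, and averaged over the media 2 were higher, 4 lower and 3 not called (median -0.14), against 21.8% higher and 23.4% lower over all tested probe sets. Ctnnb1, the gene of beta-catenin, was higher (0.75, SE 0.06, adjusted p = 1.64e-05), with 5282 to 6069 on the Rb-null arrays, against 3095 to 3681 on the wild-type arrays. The plaque gene Jup was lower (-0.54, SE 0.09, adjusted p = 0.00164), as were Cdh3, a cadherin of basal epithelium (-0.56, SE 0.11, adjusted p = 0.00251), and the adhesion gene Nectin2 (-0.50, SE 0.10, adjusted p = 0.00384). A second Cdh3 probe set stood at -0.07 (adjusted p = 0.618) and a second Nectin2 probe set at -0.25 (adjusted p = 0.00412). Vcl, the gene of vinculin, was lower on both probe sets, by different amounts (-1.30, SE 0.11, and -0.35, SE 0.07). After withdrawal averaged over the lines 0 were higher and 1 was lower, against 11.7% higher and 12.1% lower over all tested probe sets.

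Transcription factors that have been linked to claudin, occludin or connexin genes were also read. Of 15 listed, 12 were tested. Averaged over the media 4 were higher in Rb-null cells and 2 lower (median -0.03), against 21.8% higher and 23.4% lower over all tested probe sets. Foxa1, a prostate epithelial factor, was higher in Rb-null cells (1.98, SE 0.15, adjusted p = 1.43e-05), as were Klf4, an epithelial differentiation factor (0.71, SE 0.07, adjusted p = 8.04e-05), and Sp1 (0.70, SE 0.19, adjusted p = 0.016). Foxa1 in wild-type cells read 204 and 207 without serum, near the floor, and 439, 275 and 275 with serum. Its difference ranged from 1.54 to 2.09 over the 16 alternatives and was called under all of them. The Sp1 call was lost without Rb-null serum-free 1, Rb-null serum 2 or wild-type serum-free 2 (adjusted p up to 0.0612). Snai2, a repressor of claudin and occludin genes singled out after its values were seen, was higher by 0.48 (SE 0.07, adjusted p = 0.000576), and Twist1 was lower (-0.71, SE 0.06, adjusted p = 4.13e-05). On withdrawal averaged over the lines 3 of the 12 were higher and 1 lower, against 11.7% higher and 12.1% lower over all tested probe sets. The lower one was Foxa1 (-0.53, SE 0.15, adjusted p = 0.0293), a call kept under 9 of the 16 alternatives. In Rb-null cells 3 were higher and 0 lower, against 7.5% and 6.42% of all. In wild-type cells 2 were higher and 0 lower, against 6.61% and 9.25% of all. The epithelial factors Elf3 and Klf4 rose in both lines. Elf3 rose by 0.45 in Rb-null cells (SE 0.08, adjusted p = 0.00547) and 0.67 in wild-type cells (SE 0.07, adjusted p = 0.000292). Klf4 rose by 0.79 in Rb-null cells (SE 0.11, adjusted p = 0.00125) and 0.55 in wild-type cells (SE 0.10, adjusted p = 0.00467, and 0.0621 without wild-type serum-free 2). Klf5 rose in Rb-null cells (0.77, SE 0.08, adjusted p = 0.000301) and stood at 0.21 in wild-type cells (adjusted p = 0.0842), and its interaction of 0.56 was not called (adjusted p = 0.0524).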

How the data were processed

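The authors deposited 1 linear intensity for each probe set on each of 9 single-channel arrays. Their software, summary method and scaling are not given in the labels used here. Array upper quartiles spanned 0.22 on the log2 scale, so the deposited values were quantile normalised, raised to a floor of 197 (percentile 25 of all values) and taken to log2. Probe sets above the floor on at least 2 arrays were tested, 9686 in all. Gene names came from the platform annotation. A single fit of 4 group means used limma 3.58.1 in R 4.3.3 with an intensity trend (5 residual and 4.2 prior degrees of freedom, two-sided tests), and was tested on simulated data. The 16 alternatives covered scaling, floor, filter, variance trend, a replicate block and each array left out.

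The members and gene lists were chosen with earlier results of these data known. Every member probe set was named. The counts and medians of the lists took each gene on its brightest tested probe set, while genes were named from any of their probe sets. From each list, genes were named when called with a log2 difference of at least 0.5, up to 6 a list, and connexins below that size and Snai2 were named after their values were seen.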

Additional observations from a re-analysis of the deposited data

How the results depend on the processing

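Of 35 called differences of the 11 probe sets, 17 held under all 16 alternatives, 18 were lost under at least 1 and 0 changed direction. Of 42 uncalled ones, 17 were called under at least 1 alternative and 14 changed sign. In the values as deposited the sign changed for the averaged line difference of Cldn4 (0.07) and Gja1 100064_f_at (0.18), for the line difference in serum of Cldn3 94493_at (0.12), Cldn7 (0.06), Tjp1 (0.10) and Gja1 100064_f_at (0.06), and for withdrawal in wild-type cells of Cldn3 94493_at (-0.02), Cldn3 162315_f_at (-0.03) and Cldn4 (-0.07) and in Rb-null cells of Tjp1 (-0.02). With a common median it changed for the same 2 averaged differences (0.04 and 0.15), the same 4 in serum (0.09, 0.03, 0.07 and 0.04) and Cldn4 withdrawal in wild-type cells (-0.02). Leaving out 1 array gave ranges across 0 for Cldn3 162315_f_at between lines without serum (-0.25 to 0.25) and on wild-type withdrawal (-0.12 to 0.18), Cldn4 on wild-type withdrawal (-0.12 to 0.20), Gja1 100064_f_at between lines (-0.03 to 0.01), Tjp1 between lines in serum (-0.14 to 0.01) and on Rb-null withdrawal (-0.02 to 0.13), and Ocln on withdrawal averaged over lines (-0.02 to 0.12), in Rb-null cells (-0.12 to 0.15) and in the interaction (-0.21 to 0.07). The causes were not tested.

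Leaving out 1 array moved the number of called probe sets to 3068 to 6074 for the averaged line difference, 877 to 4376 in serum, 1159 to 4981 without serum, 1571 to 2969 for averaged withdrawal, 497 to 2280 in Rb-null cells, 667 to 1963 in wild-type cells and 12 to 255 for the interaction. The members called were then 5 to 9, 1 to 6, 3 to 6, 5 to 7, 3 to 9, 4 to 6 and 0 to 1 in the same order. The interaction count was 57 with the floor at percentile 10 and 57 with no intensity trend, against 90. Of the members, 1 was called for the interaction with the floor at percentile 40 and 1 with no filter, and 5 for the averaged line difference with no filter.

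The labels do not say whether replicate numbers pair arrays, and the main fit used no replicate block. Same-numbered arrays had deviations from their group means that correlated between -0.23 and 0.33. In a group of 2 arrays these deviations mirror each other, so the correlations cannot decide the pairing. With the replicate number as a block the interaction count was 51 and Cldn4 withdrawal in wild-type cells was -0.10. The block ended the averaged line calls of Ocln and Cldn3 162315_f_at and both Cldn3 calls for withdrawal in Rb-null cells, and made that of Gja1 100065_r_at a call. Crossing the pairing in Rb-null cells gave 1149 calls for withdrawal, against 1348. Signal over background limited the dim Cldn1 probe set and Gjb2 with serum.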
